A study of Homo sapiens with 14 samples.

Results

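The stretch described here is the 3′ end of domain II of human 28S ribosomal RNA (rRNA), nt 2051 to 2360, which surrounds expansion segment ES15L. It was chosen by position alone, in the numbering of the deposited 28S profile, and its bounds are approximate. All 310 of its nucleotides have a score with every reagent, out of 5034 scored nucleotides in a profile of 5070 nt. The other 4724 scored nucleotides, between nt 7 and nt 5040, are called the rest of 28S. The scores come from HEK293 cells, a human embryonic kidney line that carries adenovirus 5 DNA. The cells were exposed for 10 min to AcIm (acetylimidazole) at 100 mM, to AcIN3 at 200 mM or to NAIN3 (NAI-N3, an azide-bearing nicotinic acid imidazolide) at 100 mM, against 10% DMSO as solvent. AcIN3 is known here by its code name only. The labels list 14 samples, 2 biological replicates for each of 7 groups, of which 4 groups are gel-purified rRNA and 3 are polyadenylated RNA. Scores of the AcIm, AcIN3 and NAIN3 rRNA groups were used. DMSO and polyadenylated RNA were not analysed here.

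Reagents of this kind acylate the 2′-hydroxyl of the ribose. Flexible, unpaired nucleotides that the reagent can reach react most, whereas nucleotides held in helices or covered by protein react least. In a common form of such probing, reverse transcriptase stops next to an adduct, and the stops are turned into a reactivity score. Whether the scores used here were made this way is not given in the sources used. Domain II is a large domain of 28S rRNA that also carries the GTPase-associated centre, where elongation factors dock. Expansion segments are insertions of eukaryotic rRNA that are long and GC-rich in humans. They lie largely at the surface of the ribosome, and their outer parts are often too mobile to be resolved in structures. The 5 copies of the 28S gene listed for GRCh38.p14 differ in length, between 5054 and 5077 nt. The profile has the length of RNA28SN5 (5070 nt, from 113348 to 118417 on a GRCh38.p14 sequence that is not placed on a chromosome). Each such locus encodes structural rRNA with no coding region. No base of the rRNA is printed, because no 28S sequence was used here.

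The values are the authors' mean R-scores, 1 per nucleotide and reagent, on a scale of 0 to 1. Replicate values, read counts and depth were not analysed here, so no value has a standard deviation, no interval of counting error can be given and no test between reagents was possible. Nucleotides are not replicates of a condition, so values over nucleotides are given as a description, without p-values. For error, the mean itself sets a limit. If both replicates lie on the scale of 0 to 1, as the means do, neither can exceed double the mean, nor fall short of 1 by more than double the distance of the mean from 1. A mean of 0 or 1 therefore fixes both replicates, and a mean near 0.5 leaves them free. The 4 rRNA groups include a single DMSO group, which would be the background of every reagent, so the profiles are given side by side and no correlation between reagents is reported.

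Taken as a whole, the stretch was somewhat more reactive than the rest of 28S with each reagent, but not along its whole length. A nucleotide was taken as highly reactive when it was in the top 10% of 28S by score, whose lowest score was 0.310 with AcIm, 0.369 with AcIN3 and 0.240 with NAIN3. With AcIm, 36 nucleotides of the stretch (11.6%) were highly reactive, against 9.89% of the rest of 28S and 9.99% of all scored 28S. With AcIN3 these were 45 nucleotides (14.5%), against 9.70% of the rest and 9.99% of all. With NAIN3 they were 39 nucleotides (12.6%), against 9.82% of the rest and 9.99% of all. The share in the stretch was thus 1.17 times that in the rest with AcIm, 1.5 times with AcIN3 and 1.28 times with NAIN3. The AcIm share lay close to the background of all 28S. At nt 2051 to 2200 the shares were 4.67% with AcIm, 6% with AcIN3 and 8.67% with NAIN3, each below the rest. At nt 2201 to 2270 they were 24.3%, 32.9% and 28.6%, each above it. At nt 2271 to 2360 they were 13.3%, 14.4% and 6.67%, below the rest with NAIN3 only. The bounds of these parts were set from window means, so the split is a description.

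The middle of the distribution was also higher in the stretch, by little with AcIN3. The median R-score with AcIm was 0.0775 in the stretch and 0.0645 in the rest of 28S. With AcIN3 the medians were 0.106 in the stretch and 0.0995 in the rest, and with NAIN3 they were 0.0483 and 0.032. As percentile ranks over all scored 28S nucleotides, the medians of the stretch were 55.7 with AcIm, 52.0 with AcIN3 and 59.6 with NAIN3. At nt 2051 to 2200 these median ranks were lower than in the whole stretch, at 40.4, 32.1 and 53.5. The NAIN3 value was still above that of the rest of 28S (49.4). At nt 2201 to 2270 they were 78.1, 80.7 and 74.2, and at nt 2271 to 2360 they were 52.5, 55.5 and 52.8. Scores spread widely within the stretch, from 0 to 1 with every reagent. The range between the quartiles ran from 0.03 to 0.178 with AcIm, from 0.046 to 0.225 with AcIN3 and from 0.0155 to 0.133 with NAIN3. Scores above 0.5 were found at 7.42% of its nucleotides with AcIm (4.45% in the rest), 9.03% with AcIN3 (5.38% in the rest) and 5.48% with NAIN3 (3.49% in the rest).

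The neighbours of the stretch on both sides held smaller shares of highly reactive nucleotides. The domain II core before it (nt 1312 to 2050, 739 nt) had 6.63% with AcIm, 8.25% with AcIN3 and 7.58% with NAIN3. Domain III after it (nt 2361 to 2876, 516 nt) had 8.91%, 8.14% and 6.40% with the same reagents. The expansion segment ES27L (nt 2877 to 3598, 722 nt) was closer to the stretch, with 12%, 12.6% and 13.9%. These differences between stretches of one profile have no replicate check. At the 5′ bound, nt 2051 inside scored 0.052 with AcIm, 0.093 with AcIN3 and 0.0205 with NAIN3, while nt 2050 outside scored 0.022, 0.031 and 0.0095. At the 3′ bound, nt 2360 inside scored 0.1, 0.192 and 0.076, and nt 2361 outside scored 0.099, 0.196 and 0.091.

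**Figure D1:**
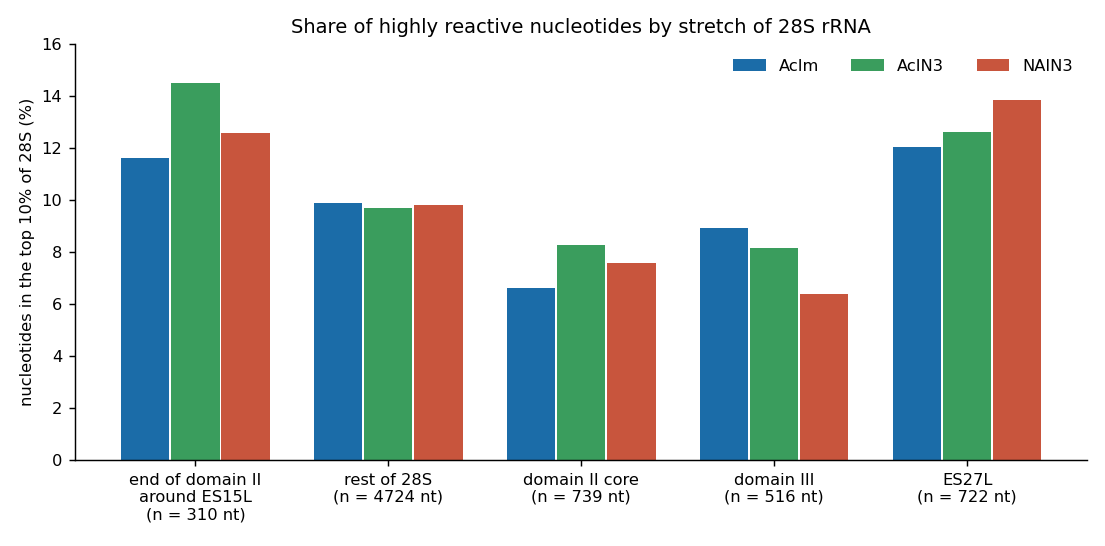
Share of nucleotides in the top 10% of all scored 28S nucleotides (vertical axis, %) for the end of domain II around ES15L, the rest of 28S, its neighbours and ES27L, with a bar for each reagent. The stretch has 11.6% with AcIm, 14.5% with AcIN3 and 12.6% with NAIN3, above both neighbours and at a level like that of ES27L.

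Reactivity was not spread evenly over the 310 nt. In 31 consecutive windows of 10 nt, the mean score was above the mean of all scored 28S with all 3 reagents in 11 windows and below it with all 3 reagents in another 11. The 28S means were 0.127 with AcIm, 0.160 with AcIN3 and 0.0926 with NAIN3. The 11 reactive windows made up a patch at nt 2091 to 2100, another at nt 2131 to 2150, a long stretch at nt 2201 to 2270 and a patch at nt 2341 to 2350. The 11 windows below the mean lay at nt 2051 to 2080, 2101 to 2130, 2151 to 2160, 2181 to 2200 and 2321 to 2340. The remaining 9 windows were above the mean with some reagents only.

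**Figure D2:**
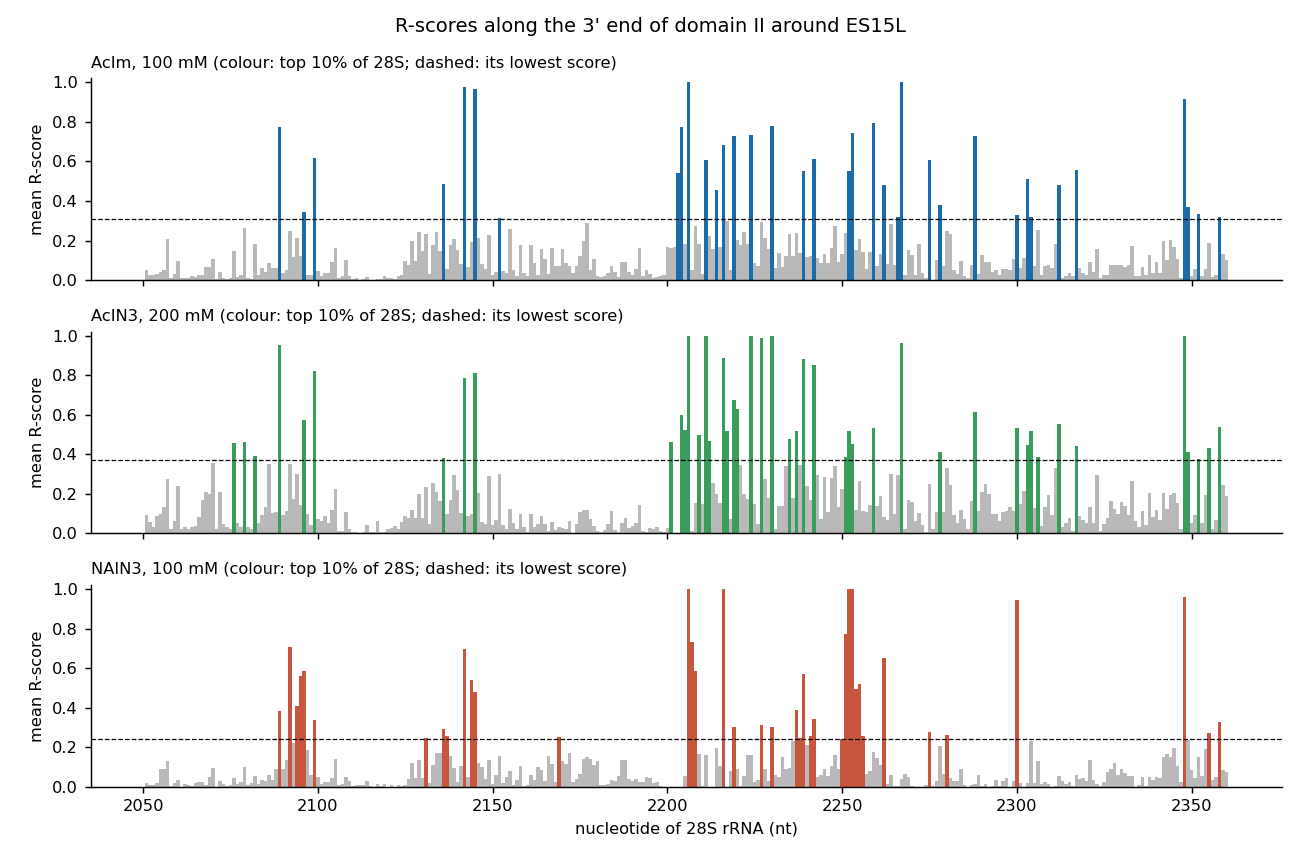
Mean R-score (vertical axis, 0 to 1) of each nucleotide of the stretch (horizontal axis, nt of 28S rRNA) with AcIm, AcIN3 and NAIN3. Coloured bars are in the top 10% of 28S, and the dashed line is the lowest score among those. Tall bars gather between nt 2201 and 2270, and nt 2109 to 2124 are near 0 with every reagent.

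**Figure D3:**
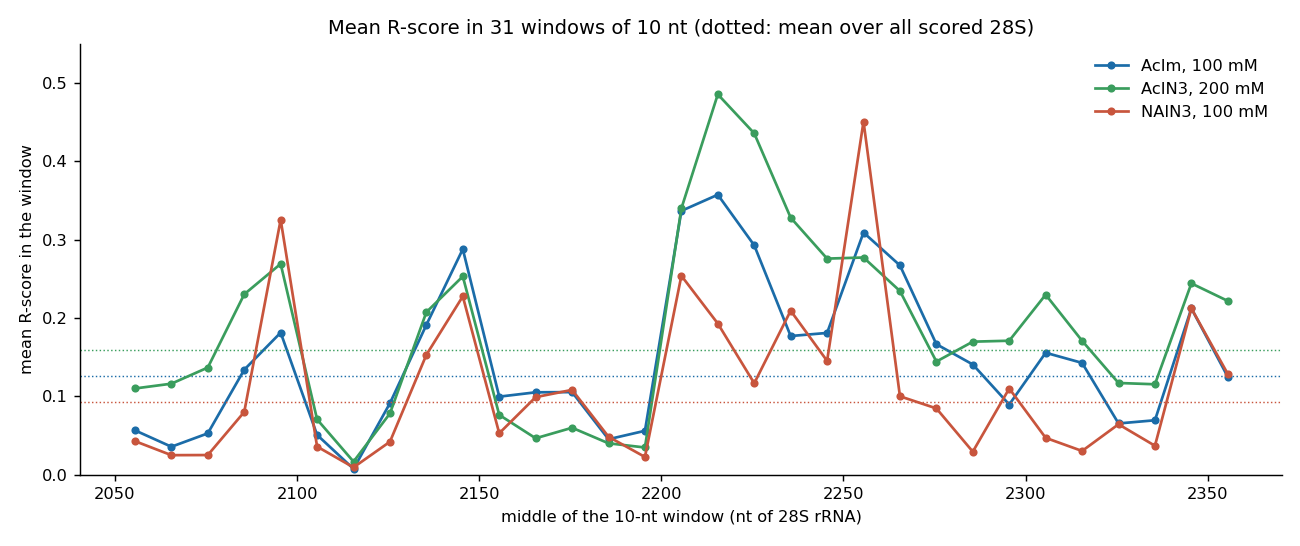
Mean R-score (vertical axis) in 31 consecutive windows of 10 nt (horizontal axis, middle of the window), with 1 line per reagent and a dotted line at each reagent's mean over 28S. The highest windows are nt 2211 to 2220 with AcIm (0.358) and AcIN3 (0.486) and nt 2251 to 2260 with NAIN3 (0.451).

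The first 30 nt held no highly reactive nucleotide with AcIm or NAIN3. Over nt 2051 to 2080 the mean score was 0.0485 with AcIm, 0.121 with AcIN3 and 0.0311 with NAIN3, while 19 of the 30 nucleotides ranked below the median of 28S with all 3 reagents. AcIN3 reached its own top 10% here at nt 2076 (0.457) and nt 2079 (0.464). Its dose was higher than that of the other reagents, and a role of dose was not tested. At the same nucleotides AcIm scored 0.149 and 0.262, and NAIN3 scored 0.046 and 0.102.

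A first reactive patch followed at nt 2089 to 2099, and its pattern differed between AcIm and NAIN3. Its outer nucleotides were high with all reagents. Nt 2089 scored 0.775 with AcIm, 0.955 with AcIN3 and 0.382 with NAIN3, while nt 2099 scored 0.619, 0.821 and 0.340. Between them, NAIN3 was high at nt 2092 (0.708), nt 2094 (0.408), nt 2095 (0.560) and nt 2096 (0.586). AcIm scored 0.248, 0.212, 0.124 and 0.346 at these nucleotides, and only nt 2096 reached its top 10%. The window nt 2091 to 2100 averaged 0.182 with AcIm, 0.269 with AcIN3 and 0.326 with NAIN3, the second highest of the 31 windows with NAIN3.

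The quietest part lay shortly after this patch. A nucleotide was called quiet when it ranked below the median of 28S with all 3 reagents, which held for 82 of the 310 nucleotides (26.5%), against 33.4% of the rest and 32.9% of all scored 28S. Quiet nucleotides thus made up a smaller share here, but 16 of them stood in a row at nt 2109 to 2124. That was the longest such row in all scored 28S, where 41 rows had at least 5 nt and the next longest, at nt 1345 to 1354, had 10 nt. In the row the mean score was 0.01 with AcIm, 0.021 with AcIN3 and 0.00953 with NAIN3, while the highest single scores were 0.024, 0.0625 and 0.03. Nt 2112 was listed at 0 with both AcIm and AcIN3, and nt 2116 with both AcIm and NAIN3. With a limit at rank 40 the row shrank to 10 nt and was still the longest of 28S. With a limit at rank 60 it kept its 16 nt, and a row of 17 nt at nt 4784 to 4800 was longer. A score near 0 can come from an unreactive nucleotide or from poor coverage, and the depth of this row was not tested. The only other row of at least 5 quiet nucleotides in the stretch was nt 2061 to 2066.

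The second patch, nt 2131 to 2150, held the highest AcIm scores before the long reactive part. Nt 2142 scored 0.976 with AcIm, 0.785 with AcIN3 and 0.695 with NAIN3. Nt 2145 scored 0.966, 0.814 and 0.481. The AcIm mean places both replicates at 0.951 or above at nt 2142 and at 0.931 or above at nt 2145. Between these peaks, nt 2144 scored 0.192 with AcIm, 0.101 with AcIN3 and 0.539 with NAIN3. Nt 2136 was in the top 10% of every reagent, with 0.485, 0.380 and 0.293. Its 3′ neighbour nt 2137 was in the top 10% of NAIN3 only, scoring 0.054 with AcIm and 0.0985 with AcIN3, against 0.257 with NAIN3.

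From nt 2141 to 2200 the AcIm scores were mostly the higher ones beside those of AcIN3. The doses of these reagents differed, so their scores are only set side by side. This order held for the mean of all 6 windows and for 46 of 60 nucleotides (76.7%), against 21.6% of the nucleotides in the rest of 28S. The means over these 60 nt were 0.117 with AcIm, 0.0852 with AcIN3 and 0.0933 with NAIN3. Their median percentile rank was 50.7 with AcIm, 24.8 with AcIN3 and 60.8 with NAIN3. The span was picked after its values were seen, as the longest run of such windows here. The gap was visible at nt 2170, which scored 0.158 with AcIm, 0.0275 with AcIN3 and 0.133 with NAIN3. It was also visible at nt 2177, which scored 0.288, 0.117 and 0.150. Highly reactive nucleotides were scarce from nt 2151 to 2200. Nt 2152 was one with AcIm (0.314) and nt 2169 was one with NAIN3 (0.254), and there was none with AcIN3.

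The long reactive part, nt 2201 to 2270, held 17 of the stretch's 36 highly reactive nucleotides with AcIm, 23 of 45 with AcIN3 and 20 of 39 with NAIN3. Of its 70 nucleotides, 24.3% were highly reactive with AcIm, 32.9% with AcIN3 and 28.6% with NAIN3, while no nucleotide was quiet with all 3 reagents. Its mean score was 0.275 with AcIm, 0.340 with AcIN3 and 0.210 with NAIN3. It began abruptly. The window before it, nt 2191 to 2200, averaged 0.0562 with AcIm, 0.0349 with AcIN3 and 0.0228 with NAIN3, while the first window in it, nt 2201 to 2210, averaged 0.337, 0.340 and 0.254. These bounds were set from the window means, so the contrast is a description. Single nucleotides did not all rise at nt 2201. AcIN3 went from 0.0295 at nt 2200 to 0.4645 at nt 2201, but AcIm went from 0.1665 to 0.1615. NAIN3 stayed at 0 up to nt 2204, and its window mean came mostly from nt 2206 to 2208 (1, 0.7315 and 0.584).

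Nt 2206 was the only nucleotide of the stretch at 1 with every reagent. If the scores rest on stops, a base or a structure that stops reverse transcriptase without any reagent could also give such a score, which was not tested. Its 3′ neighbours were split by reagent. Nt 2207 scored 0.053 with AcIm, 0.0145 with AcIN3 and 0.732 with NAIN3, while nt 2208 scored 0.274, 0.154 and 0.584. On its 5′ side NAIN3 was listed at 0 at 6 nucleotides in a row, nt 2199 to 2204. Over the last 2 of these AcIm was high, with 0.541 at nt 2203 and 0.777 at nt 2204, where AcIN3 gave 0 and 0.600. NAIN3 was listed at 0 for 23 nucleotides of the stretch (7.42%), against 10.4% of the rest and 10.2% of all scored 28S. AcIm was at 0 for 4 nucleotides of the stretch (1.29%, with 0.755% in all scored 28S) and AcIN3 also for 4 (1.29%, with 1.37% in all scored 28S). Rows of at least 6 NAIN3 zeros numbered 12 in 28S, and the longest had 11 nt.

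From nt 2211 to 2242 several peaks of AcIN3, which was used at another dose than AcIm and NAIN3, came to 1 or close to it. AcIN3 was at 1 at nt 2211, nt 2224 and nt 2230 and at 0.989 at nt 2227. At those 4 nucleotides AcIm scored 0.609, 0.733, 0.778 and 0.292, and NAIN3 scored 0.159, 0.159, 0.303 and 0.311. Nt 2216 had the other order, with 0.682 for AcIm, 0.886 for AcIN3 and 1 for NAIN3. At the neighbours nt 2212, nt 2213 and nt 2217, AcIm gave 0.225, 0.155 and 0.300, and NAIN3 was again listed at 0. Nt 2219, nt 2239 and nt 2242 were highly reactive with every reagent, with AcIm scores of 0.730, 0.550 and 0.614, AcIN3 scores of 0.674, 0.884 and 0.851 and NAIN3 scores of 0.302, 0.573 and 0.343.

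With NAIN3, all 7 consecutive nucleotides at nt 2250 to 2256 were in its top 10%, its longest unbroken row in the stretch, with a mean of 0.612. Nt 2252 and nt 2253 were at 1 with NAIN3, so both replicates were at 1 there. AcIm scored 0.551 and 0.745 at these 2 nucleotides and AcIN3 scored 0.516 and 0.455. At nt 2251 the scores were 0.237 with AcIm, 0.387 with AcIN3 and 0.772 with NAIN3. Further on, the order turned. Nt 2259 scored 0.797 with AcIm, 0.534 with AcIN3 and 0.175 with NAIN3, while nt 2267 scored 1, 0.963 and 0.0395. Nt 2262 split the reagents differently, since AcIm (0.482) and NAIN3 (0.652) were high there and AcIN3 (0.0825) was not.

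The 50 nt that follow, nt 2271 to 2320, were lower with NAIN3. Their mean score was 0.139 with AcIm, 0.177 with AcIN3 and 0.0604 with NAIN3. AcIm was above NAIN3 at 42 of 50 nucleotides, against 66.5% of the whole stretch and 72.6% of the rest of 28S. The end at nt 2320 was set at the last window with AcIm above and NAIN3 below its 28S mean, so this contrast is a description. Within the span, the window nt 2291 to 2300 had the reverse order, below the 28S mean with AcIm (0.0897) and above it with NAIN3. Up to nt 2360, AcIm was above NAIN3 at 63 of 90 nucleotides and NAIN3 above AcIm at 26. Over the 50 nt, AcIm and AcIN3 each had 8 highly reactive nucleotides and NAIN3 had 3. The highest AcIm scores stood at nt 2275 (0.608), nt 2288 (0.731), nt 2303 (0.510), nt 2312 (0.483) and nt 2317 (0.557). NAIN3 scored 0.276, 0.016, 0.018, 0.0565 and 0.0615 at these nucleotides. NAIN3 was above AcIm at the other 8 nucleotides, among them nt 2300, with 0.329 for AcIm, 0.536 for AcIN3 and 0.945 for NAIN3. This nucleotide carried most of the NAIN3 mean of its window, nt 2291 to 2300, which was 0.110 while the window's median was 0.0208.

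The last 40 nt held no highly reactive nucleotide up to nt 2340 and then a strong peak. Means over nt 2321 to 2340 were 0.0676 with AcIm, 0.116 with AcIN3 and 0.0508 with NAIN3, but only 5 of these 20 nucleotides ranked below the median with all 3 reagents. Nt 2348 scored 0.914 with AcIm, 1 with AcIN3 and 0.963 with NAIN3, which places all replicates at 0.828 or above. Nt 2358 was also highly reactive with each reagent, at 0.319, 0.541 and 0.326. Nt 2351 is listed as a ribose-methylated cytidine (Cm2351) in the numbering of the mature human 28S rRNA, a position taken from general knowledge and not matched to a sequence. Ribose methylation removes the free 2′-hydroxyl. Nt 2351 scored 0.0565 with AcIm, 0.093 with AcIN3 and 0.043 with NAIN3, at percentile ranks of 45.1, 47.4 and 56.9, which is near the middle of each profile. It lies 3 nt after the peak at nt 2348.

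Ranks of nucleotides 3 nt apart were more alike in the stretch than over all scored 28S with each reagent, as were those 2 and 4 nt apart. Over the 307 pairs of nucleotides 3 nt apart, Pearson's r of the percentile ranks was 0.50 with AcIm, 0.50 with AcIN3 and 0.41 with NAIN3. With NAIN3 the value was higher for direct neighbours, at 0.50. At distances of 2 and 4 nt the value was 0.29 and 0.24 with AcIm, 0.29 and 0.29 with AcIN3, and 0.37 and 0.28 with NAIN3. Over all scored 28S the values at 2 and 4 nt were 0.16 and 0.01 with AcIm, 0.18 and 0.06 with AcIN3, and 0.32 and 0.15 with NAIN3. The higher values at 3 nt were thus part of a higher level in the stretch at these distances. This level was not particular to the stretch at 2 nt. There ES27L had 0.36 with AcIN3, above the stretch, and the domain II core had 0.37 with NAIN3, like the stretch. All other values of these parts and of domain III at 2 and 4 nt were below those of the stretch. Over all scored 28S the value at 3 nt was 0.26 with AcIm, 0.27 with AcIN3 and 0.28 with NAIN3, while in the domain II core it was 0.17, 0.17 and 0.36. In ES27L it was 0.30, 0.41 and 0.27. The distances between successive local maxima gave another picture with AcIm only. With AcIm, 45.1% of them were 3 nt in the stretch and 43.9% in all scored 28S, so the spacing of its maxima was near the background. With AcIN3 these shares were 51.5% in the stretch and 42.9% in all scored 28S, and with NAIN3 they were 44.2% and 36.2%. The pairs share nucleotides, libraries and the slow change of level along the rRNA, so these values are descriptions with no test. With AcIm, 8 local maxima stood exactly 3 nt apart from nt 2149 to nt 2170, with a mean score of 0.204 (0.158 to 0.314). The nucleotides 1 nt after them averaged 0.0638 and those 1 nt before them 0.0377 with AcIm. Both had to be lower, since the chain was picked as local maxima of AcIm. The other profiles were not used for this choice. AcIN3 averaged 0.136 on the maxima, 0.0362 after them and 0.0324 before them. NAIN3 averaged 0.109, 0.0314 and 0.0881, so its scores before the maxima were only slightly lower. The longest such chain with AcIm in 28S had 15 maxima, from nt 845 to nt 887, inside ES7L. The pattern was noticed in the data, and its relation to the base sequence was not tested, since no 28S sequence was used.

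**Figure D4:**
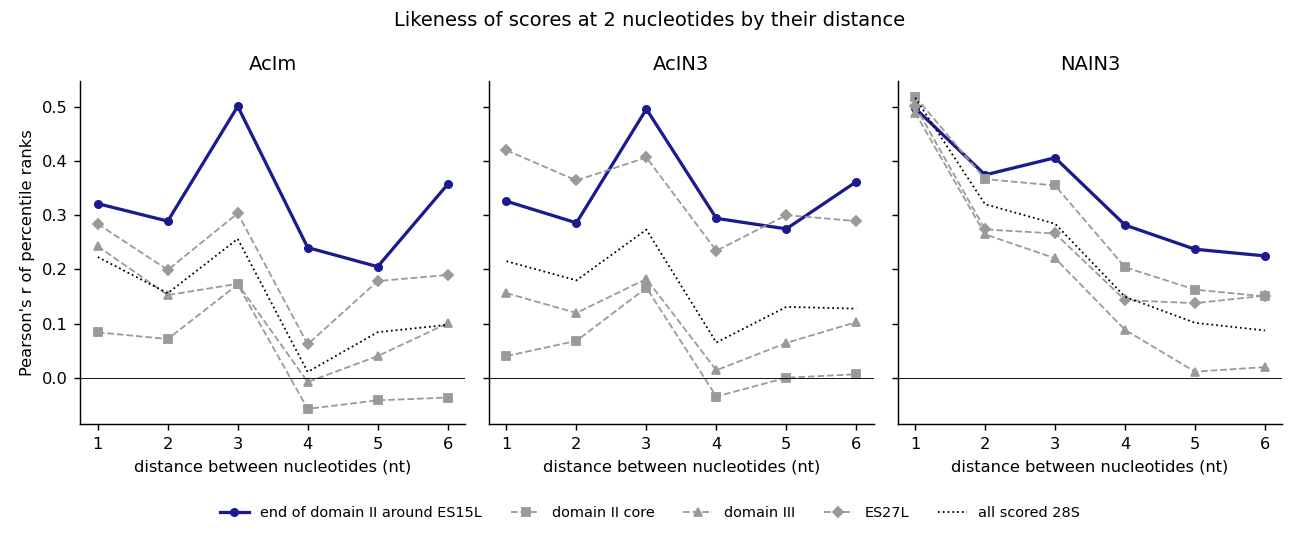
Pearson's r of percentile ranks (vertical axis) between nucleotides 1 to 6 nt apart (horizontal axis), with a panel per reagent and a line for the stretch, the domain II core, domain III, ES27L and all scored 28S. With AcIm and AcIN3 the line of the stretch peaks at 3 nt, at 0.50, and that of all scored 28S also peaks there, at 0.26 and 0.27.

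AcIm shared its dose and time with NAIN3. How their scores were scaled is not known here, so a difference is one of scores, and the 28S means given above differed as well. They transfer different acyl groups, a small acetyl group from AcIm and a larger aromatic group with an azide from NAIN3. AcIm scored above NAIN3 at 206 of 310 nucleotides (66.5%), against 72.6% of the rest of 28S, and NAIN3 above AcIm at 99. Opposed nucleotides, highly reactive with one reagent and below the median rank with the other, were few. AcIm was high and NAIN3 low at 5 nucleotides (1.61%), with 0.677% in the rest and 0.735% in all scored 28S. These were nt 2203, nt 2204, nt 2266, nt 2288 and nt 2303. NAIN3 was high and AcIm low at 2 nucleotides (0.645%), nt 2137 and nt 2207, with 0.550% in the rest and 0.556% in all scored 28S. The first share was above the background, on 5 nucleotides of which 2 are adjacent, and the second was near it. With low set at rank 25 the counts were 3 and 0, and with high set at the top 20% they were 7 and 9, so their order depended on these limits.

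The means alone separated the replicates at 9 nucleotides, given that each replicate lies between 0 and 1. Both AcIm replicate scores must lie above both NAIN3 replicate scores at 6 nucleotides (1.94%, with 1.04% in the rest and 1.09% in all scored 28S). At nt 2267 AcIm was at 1 in both replicates, and NAIN3 could reach 0.079 at most. At nt 2204 AcIm was at 0.553 or above with NAIN3 at 0, and at nt 2288 it was at 0.462 or above with NAIN3 at 0.032 at most. The others were nt 2259 (0.594 or above with AcIm, 0.350 at most with NAIN3), nt 2224 (0.465 and 0.317) and nt 2203 (0.081 and 0). The reverse held at 3 nucleotides (0.968%, with 0.847% in the rest and 0.854% in all scored 28S), a share near the background. These were nt 2207 (AcIm 0.106 at most, NAIN3 0.463 or above), nt 2251 (0.473 and 0.543) and nt 2300 (0.657 and 0.890). Only a mean above 0.5 can meet this limit, and AcIm had 23 such nucleotides here, against 17 with NAIN3. Among its top 10%, the NAIN3 leads in rank at nt 2137, nt 2169 and nt 2241 did not meet it, since NAIN3 scored 0.257, 0.254 and 0.258 there. Nt 2095 did not meet it either, with NAIN3 at 0.560.

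**Figure D5:**
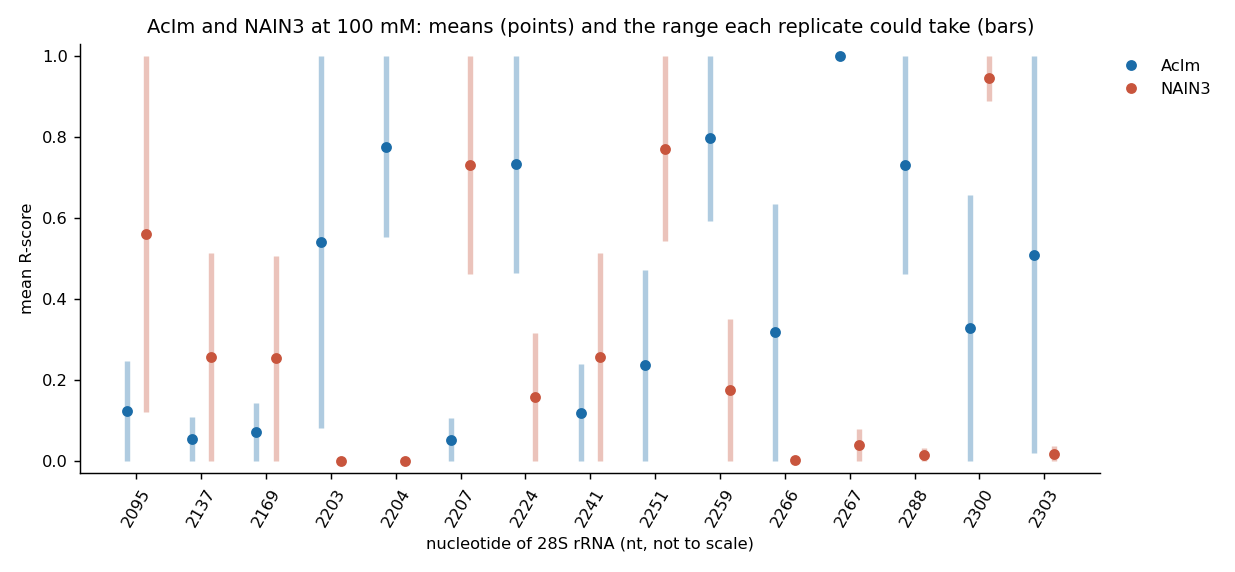
Mean R-scores (points) of AcIm and NAIN3 at 100 mM for 15 nucleotides, those opposed, those separated by the replicate limits and those with the widest rank leads among the leading reagent's top 10%, in order along 28S (horizontal axis, not to scale). Bars span the values that a replicate could take given its mean, and they do not overlap at 9 nucleotides, such as nt 2267 (1 with AcIm and 0.0395 with NAIN3) and nt 2207 (0.053 and 0.732).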

How the data were processed

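Per the labels' protocols, rRNA was gel-purified from total RNA of treated HEK293 cells. The deposited score is the authors' mean R-score per nucleotide, and per the series' design text each group had 2 biological replicates. The submitters' processing notes name Bowtie2 and GRCh38. How the score was calculated, how DMSO entered it, which depth was required and which rRNA sequence was used is not given in the sources used here. The scores all lie on steps of 0.0005. The 18S scores were not used.

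From the 28S scores, percentile ranks (ties averaged), the top 10% (503 nucleotides, ties by position), means in 10-nt windows, rows of nucleotides and replicate limits were computed with Python 3.11.15, numpy 2.4.6, pandas 2.3.3 and scipy 1.17.1. Figures used matplotlib 3.10.9. The code was tested on simulated data. A replicate number could not be used, since only means were analysed.

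Named nucleotides were the 5 highest per reagent, those at 1, the 5 widest rank leads of AcIm over NAIN3 among the top 10% of AcIm and of NAIN3 over AcIm among the top 10% of NAIN3 (wider leads exist outside these), those separated by the replicate limits, those at the bounds, and Cm2351, with the quiet rows. The rule also covered the 3 highest and 3 lowest windows per reagent, not all of which are given. Others, including further opposed nucleotides, members of the patches and rows of zeros, were named after their values were seen. The same holds for the bounds of the patches and of nt 2271 to 2320, the 3-nt repeat and the span with AcIm above AcIN3. The members, lists and rules were chosen with earlier results of these data known.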

Additional observations from a re-analysis of the deposited data

How the results depend on the processing

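No paired analysis was possible because only means over the replicates were analysed. Of 61 alternative values, 43 stayed within the limits set for them and 18 moved beyond. For share ratios and median ranks, these limits came from binomial intervals that treat nucleotides as independent. Scores of nearby nucleotides were alike, so these limits do not measure error. For counts, row lengths and window means the limit was a fixed fold change. Direction was checked only for the share ratios and median ranks, of which 0 changed direction. With the top 5% the ratio of highly reactive shares with AcIm, stretch over rest, was 1.76 (1.17 with the top 10%). With 5-nt means the median rank with AcIN3 was 57.6 (52.0 without). Opposed nucleotides with AcIm high, 5 in the report, numbered 3 with low set at rank 25. They numbered 10 and 16 with the NAIN3 profile moved by 1 nt toward the 5′ and the 3′ end. Those with NAIN3 high, 2 in the report, numbered 1 with the top 5%, 9 with the top 20% (7 with AcIm high, the reverse order), 0 with low at rank 25, 0 with 5-nt means, and 10 and 12 after these moves. Without nucleotides at 1 in all reagents and their neighbours, a choice made after seeing the data, they numbered 1 (nt 2207 drops out). After the moves, separated nucleotides numbered 18 and 18 for AcIm over NAIN3, and 10 and 9 for the reverse. The longest quiet row had 10 nt with the limit at rank 40, and the highest NAIN3 window averaged 0.276 at a width of 20 nt. Depth is unknown, so low scores cannot be told from uncovered nucleotides.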

Other observations

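The run of 6 windows with AcIm above AcIN3 at nt 2141 to 2200 was among the 5 longest of 28S, where 101 of 503 windows (20.1%) had this order. The longest run had 8 windows, at nt 3361 to 3440 in ES27L. The others had 6 windows each, at nt 861 to 920 in ES7L, at nt 3541 to 3600 at the end of ES27L and at nt 4821 to 4880 in domain VI, which carries ES39L. Doses differed between these reagents, and the order was not tested.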
